A study of Mus musculus with 8 samples.

Results

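The extracellular matrix genes of NMuMG cells, a mouse mammary epithelial line, were followed across 8 RNA sequencing libraries. The set holds collagen chains, laminin chains, thrombospondins, latent TGFβ binding proteins (LTBPs) and 10 named glycoproteins and proteoglycans, chosen by symbol and by a mean normalised count of at least 5 over the 8 libraries. Of 18102 genes in the deposited table, 68 carried such a symbol and 44 reached that mean. Of the 44, 40 reached the mean of 10 that the statistical test required. Just inside the limit were Col3a1 (mean 5.00), Col10a1 (5.38) and Fbn1 (5.61), and just outside it were Ltbp2 (3.404), Col6a3 (3.23) and Col6a5 (3.15).

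Each of 4 groups has 2 libraries. WT cells and cells whose label reads RREB1 knockout (KO) were given SB505124 or TGFβ. All cells were starved of serum for 6 h. SB505124 blocks the kinase of the type I TGFβ receptor. It was given at 2.5 µM for 6 h and TGFβ at 100 pM for 1.5 h, so the treatments differ in length and no group is untreated. Every KO column is coded KO1 and was treated as 1 clone. Series and labels do not say whether replicates were separate cultures, so the tests reflect the spread among the sequenced samples, which may be technical.

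Epithelial cells rest on a basement membrane, a sheet of laminin and collagen IV networks joined by nidogens and the proteoglycans perlecan and agrin. Fibrillar collagens, fibronectin, tenascin C and SPARC belong to the interstitial and provisional matrix, which fibroblasts mostly produce. TGFβ is stored in the matrix in a latent form held by LTBPs, and collagen and fibronectin genes are textbook targets of its SMAD signalling. RREB1 is a zinc finger transcription factor of the RAS pathway and can act with SMADs.

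Totals ran from 25144204 to 32143113 reads per library, of which the 44 matrix genes took 0.612% to 0.802%. The transcript of Rreb1 was present in all 8 libraries and, within each treatment, higher in the KO-labelled ones. Its normalised counts under SB505124 were 1055 and 1033 in WT and 1327 and 1343 in KO-labelled cells. Under TGFβ they were 1959 and 1769 in WT and 2481 and 2241 in KO-labelled cells. These values do not check an edit that leaves the transcript in place. Smad7, an inhibitory SMAD gene, rose from 709 and 633 to 4505 and 4278 in WT and from 601 and 607 to 5099 and 4743 in KO-labelled cells. The epithelial keratin gene Krt8 lay at 59380 or above in every library. The keratin genes Krt18 and Krt19 and the cadherin gene Cdh1 of the same luminal list were high too, whereas Epcam ran from 4.005 to 36.6 in WT and was at 0 in all KO-labelled libraries, and Esr1 and Prlr lay at 1.001 or below. Of 8 fibroblast markers, Thy1, Lum, Fap and Pdgfrb lay at 2.05 or below in every library, whereas S100a4 ran from 1814 to 3537. Pdgfra rose with TGFβ, from 38.5 and 34.04 to 110.5 and 123 in WT and from 34.4 and 44.05 to 141 and 133 in KO-labelled cells. Dcn ran from 38.9 to 94.1 in WT and lay at 0.864 or below in KO-labelled cells. The part of these marker differences in the results was not tested. The summed fibroblast markers ran from 2636 to 3702 in WT and from 1933 to 2220 in KO-labelled libraries, and most of each sum was S100a4. In these bulk samples, fewer cells of a type and less RNA per cell cannot be told apart.

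**Figure D1:**
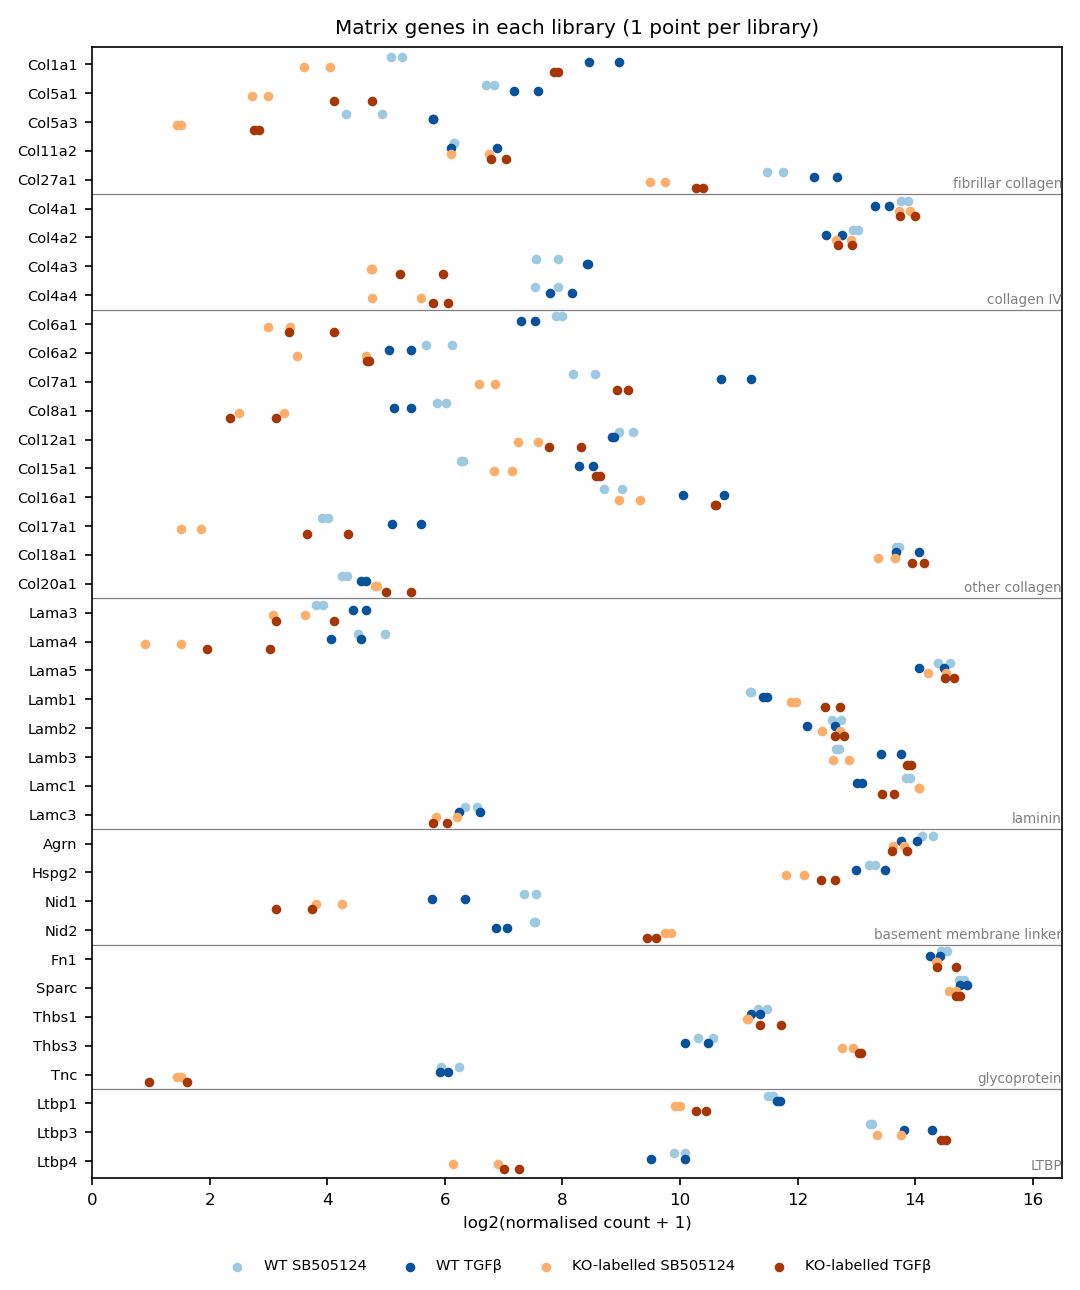
Normalised counts of 39 of the 40 tested matrix genes in each library, plotted as log2(normalised count + 1) with 1 point per library and colours for the 4 groups. Levels span from 1 read (Lama4 and Tnc in KO-labelled cells) to about 30279 (Sparc in WT TGFβ replicate 1).

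Per kilobase of annotated exon, Sparc was the most abundant matrix transcript in all 4 groups. Its levels per kilobase were 7493 ± 271 and 7662 ± 469 in WT cells under SB505124 and TGFβ and 6715 ± 366 and 7185 ± 214 in KO-labelled cells (mean ± SD, n = 2). Both its libraries lay above both libraries of the next gene in every group. SPARC is a calcium-binding glycoprotein that binds collagen. Below it in WT cells under SB505124, the genes for agrin, the laminin chain Lama5, fibronectin, Col4a1 and Col18a1 followed at 1905 to 2050 per kilobase, an order whose neighbours overlapped between libraries. Fibrillar chains were lower, with 242 ± 30.9 per kilobase for Col27a1, 12.8 ± 0.87 for Col5a1 and 5.37 ± 0.48 for Col1a1 in that group.

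In WT cells a subset of the collagens was higher after 1.5 h of TGFβ than after 6 h of SB505124. Both chains of the common basement membrane collagen, Col4a1 and Col4a2, and the laminin chain Lamc1 were lower. The calls of Col4a1 and Col4a2 were each lost in 3 of 20 alternatives. Here and below, rose, raised and fell refer to TGFβ against SB505124. With no untreated group, the parts of TGFβ and of the inhibitor were not tested. Of the 40 tested genes, 12 rose and 6 fell, against 20.2% and 23.2% of all 12498 genes tested. At a change of at least 2-fold, 6 rose and 1 fell, against 3.64% and 2.36% of all genes. All 6 were collagens, namely Col1a1, Col7a1, Col15a1, Col16a1, Col17a1 and Col5a3. The count of falls was 3 without WT SB505124 replicate 1 or WT TGFβ replicate 2 and 10 without WT TGFβ replicate 1. The median log2 fold change of the 40 genes was 0.0028 and that of all genes -0.01.

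In KO-labelled cells 19 of the 40 genes rose with TGFβ and 1 fell, against 15.1% and 15.8% of all genes. At least 2-fold, 8 rose, against 4.3% of all genes: the 6 collagens above, Col5a1 and the laminin chain Lamb3. The median over the 40 genes was 0.52, beside -0.02 over all genes. Of the 12 genes that rose in WT cells, 11 also rose in KO-labelled cells. The share of all genes rising in WT that did the same was not counted. The WT and KO-labelled responses share no libraries, but 1 fit over all 8 libraries gave both with a shared estimate of the spread.

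**Figure D2:**
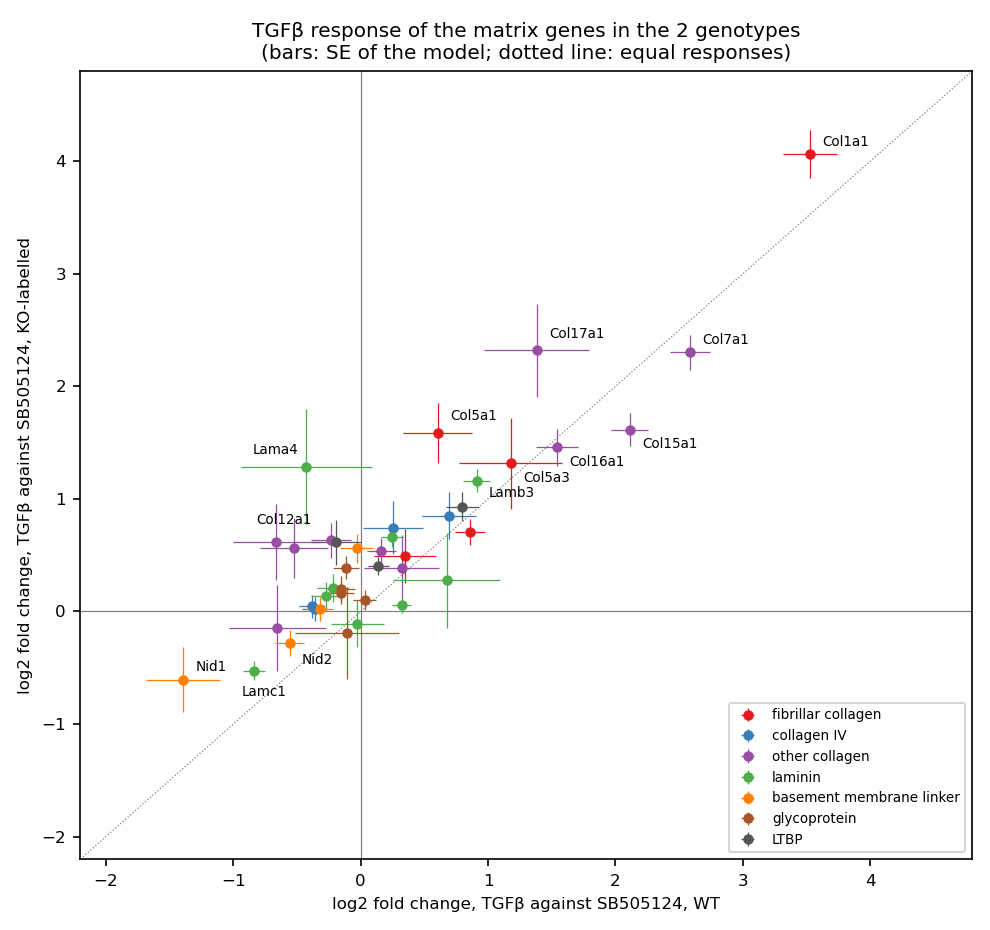
Log2 fold changes of the 40 tested matrix genes for TGFβ against SB505124 in WT cells (x axis) and KO-labelled cells (y axis), with the model's SE as bars and equal responses on the dotted line. Col1a1 lies farthest from 0 on both axes (3.53 and 4.07), and most genes lie above the dotted line.

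The fibrillar collagens held the strongest response. Col1a1 (chr11:94936224-94953042), the α1 chain of type I collagen, had normalised counts of 37.5 and 33.0 in WT cells under SB505124 and 498 and 349 under TGFβ. In KO-labelled cells it had 11.2 and 15.5 under SB505124 and 243 and 231 under TGFβ. The TGFβ libraries lay at least several-fold above the SB505124 libraries in both genotypes, without overlap. The log2 fold change was 3.53 ± 0.21 in WT (SE, limma adjusted p = 1.7e-10) and 4.07 ± 0.21 in KO-labelled cells (limma adjusted p = 1.7e-11). The partner chain Col1a2, needed for the common heterotrimer, did not follow: it had 2 reads over the 4 WT libraries, and 13 of its 14 KO-labelled reads fell in KO-labelled TGFβ replicate 2. That library also held all 35 reads of Col3a1 (type III collagen) found in KO-labelled cells, and 7 reads of Col5a2. Col1a1 did not stand apart there (231 beside 243). Of the fibroblast markers in that library, Dcn and Lum were at 0, Thy1 and Fap at 1.03, Pdgfrb at 2.05, Pdgfra at 133 and S100a4 at 2047; the cause of the Col3a1 reads was not tested.

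Of the type V collagen chains, which set the diameter of collagen fibrils, Col5a3 rose in both genotypes and Col5a1 in KO-labelled cells. Col5a1 had 114 and 103 in WT cells under SB505124 and 191 and 143 under TGFβ, a change of 0.60 ± 0.27 that did not pass the test (limma adjusted p = 0.079). In KO-labelled cells its values were 5.58 and 6.91 under SB505124 and 26.0 and 16.4 under TGFβ, a rise of 1.59 ± 0.27 (limma adjusted p = 0.00016). Col5a3 went from 29.4 and 19.02 to 54.7 and 54.9 in WT and from 1.86 and 1.73 to 5.78 and 6.15 in KO-labelled cells. Its rises of 1.18 ± 0.41 and 1.32 ± 0.41 rest on few reads (limma adjusted p = 0.025 and 0.019), and both calls depended on single libraries. The WT call was lost without WT SB505124 replicate 2 (0.88, adjusted p = 0.19), WT TGFβ replicate 1 (1.18, adjusted p = 0.096) or WT TGFβ replicate 2 (1.18, adjusted p = 0.098). The KO-labelled call was lost without KO-labelled SB505124 replicate 1 (1.35, adjusted p = 0.054) or KO-labelled TGFβ replicate 2 (1.28, adjusted p = 0.077), and in edgeR (adjusted p = 0.095) and DESeq2 (adjusted p = 0.16). Both genes lay lower in KO-labelled cells under either treatment, so their KO-labelled TGFβ values stayed below the WT SB505124 values.

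Col27a1, a fibrillar collagen of cartilage, had 3431 and 2862 in WT cells under SB505124 and 6506 and 4973 under TGFβ. Its KO-labelled values were 720.4 and 857 under SB505124 and 1235 and 1336 under TGFβ. The rises of 0.86 ± 0.12 and 0.71 ± 0.12 on the log2 scale were close in size (limma adjusted p = 1.1e-05 and 0.00011), from baselines 3.98-fold apart. The difference of the responses was -0.15 ± 0.17, with an adjusted p of 0.70 in limma. Col11a2, the other fibrillar chain tested, ran from 67.4 to 131 over the 8 libraries and was called in no comparison.

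The anchoring fibril collagen Col7a1 (chr9:108953586-108984875), which ties the basement membrane of skin to the tissue below, showed the next largest change in WT. It had 374 and 289 in WT cells under SB505124 and 2369 and 1658 under TGFβ. In KO-labelled cells it had 94.9 and 115 under SB505124 and 486 and 555 under TGFβ. Both genotypes rose, by 2.59 ± 0.16 and 2.30 ± 0.16 (limma adjusted p = 1.9e-10 and 8.6e-10). Col15a1, a collagen of the basement membrane zone with an endostatin-like end, rose from 76.0 and 78.1 to 366 and 309.7 in WT and from 114 and 141 to 381 and 399 in KO-labelled cells (2.11 ± 0.15 and 1.62 ± 0.15). Col16a1, a fibril-associated collagen, rose from 517 and 418 to 1723 and 1065 and from 501 and 638 to 1544 and 1565 (1.54 ± 0.16 and 1.46 ± 0.16). Its KO-labelled and WT levels overlapped under each treatment.

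Col17a1, the transmembrane collagen of hemidesmosomes, was near the detection limit. Its values were 15.2 and 14.02 in WT cells under SB505124, 47.4 and 33.1 under TGFβ, 1.86 and 2.59 in KO-labelled cells under SB505124 and 11.6 and 19.5 under TGFβ. The rises of 1.38 ± 0.41 and 2.32 ± 0.41 both passed the test (limma adjusted p = 0.011 and 0.00025). The WT call was lost without WT TGFβ replicate 1 (1.13, adjusted p = 0.10) and without WT SB505124 replicate 2 (1.33, adjusted p = 0.058).

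Col12a1, a fibril-associated collagen, was the 1 matrix gene whose response differed between genotypes. It had 588 and 499 in WT cells under SB505124 and 467 and 456 under TGFβ, and 189.9 and 151 and then 319 and 217 in KO-labelled cells. The KO-labelled response minus the WT response was 0.86 ± 0.22 on the log2 scale (limma adjusted p = 0.043). The background for the difference of responses was 2.25% of all genes higher and 0.568% lower in KO-labelled cells, against 1 and 0 of the 40 matrix genes. At an unadjusted p under 0.05, limma placed 19 matrix genes higher and 2 lower. The share of all genes at that looser threshold was not counted, so these 2 counts stand without a background. After adjustment, edgeR called 2 and 0 and DESeq2 3 and 0. The median difference over the 40 genes was 0.35, beside 0.01 over all genes. The Col12a1 call was lost in 6 of 19 alternative analyses, among them those without WT SB505124 replicate 1, WT SB505124 replicate 2, KO-labelled SB505124 replicate 2 or KO-labelled TGFβ replicate 1. Without WT TGFβ replicate 1, 13 matrix genes were called higher, and the calls over all genes went from 281 higher and 71 lower to 691 and 336. Without KO-labelled TGFβ replicate 2, 4 matrix genes were called higher (285 over all genes), and without KO-labelled SB505124 replicate 2, 3 (359 over all genes).

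That number moved with a difference between replicates. In WT TGFβ, 36 of the 40 genes were lower in replicate 2 than in replicate 1 (46.7% of all genes). Their median was -0.27 on the log2 scale. In KO-labelled SB505124, 9 of the 40 were lower in replicate 2 (55.5% of all genes) and the median was 0.26. In WT SB505124, 35 of the 40 were lower (47.7% of all genes), and in KO-labelled TGFβ 27 (52.2%). These 2 groups had medians of -0.12 each. The medians over all genes lay between -0.03 and 0.02 in the 4 groups. Matrix transcripts were richer in G and C (median 56.9% of exon bases, beside 50.1% over all genes) and longer (7618 and 4426 exon bases). After a correction of each library for GC content and length, the median response of the matrix genes was 0.32 in KO-labelled and 0.03 in WT cells. The difference of responses was then called higher for Thbs1, Lamb1 and Col12a1 and lower for 3 genes, Col27a1 and Col7a1 among them. The part of GC content and length in the replicate differences was not tested beyond that correction.

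**Figure D3:**
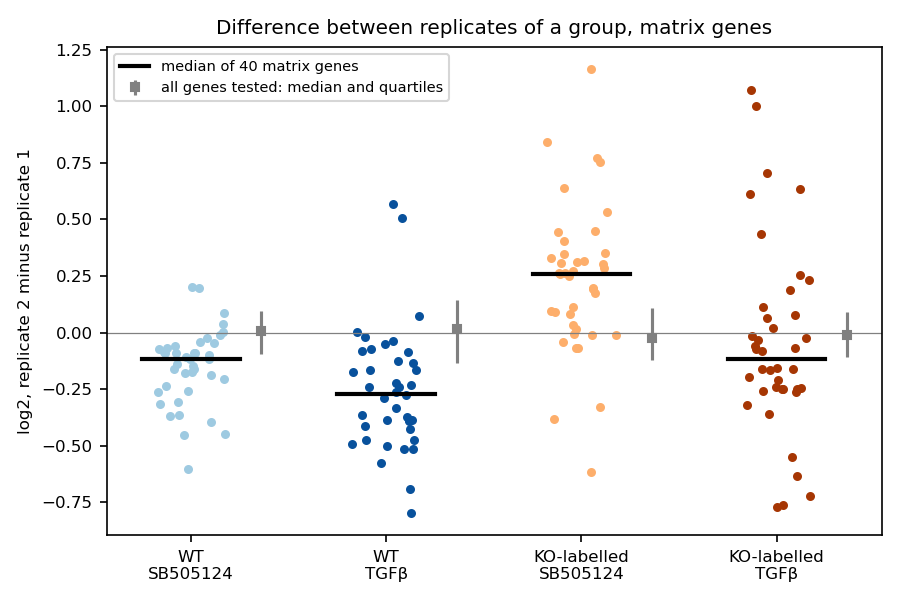
Log2 difference of replicate 2 minus replicate 1 for each of the 40 tested matrix genes (points), with their median as a black bar and the median and quartiles of all 12498 tested genes in grey. The matrix genes sit below 0 in WT TGFβ (median -0.27) and above 0 in KO-labelled SB505124 (median 0.26). The medians of WT SB505124 and KO-labelled TGFβ are -0.12 each.

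Promoters are shown for genes that rose together with TGFβ. In the RefSeq table for GRCm38.p6, 32 of the 44 genes had a promoter window on the chromosomes used here, 40 windows in all, each reaching from 250 bases before to 50 bases after a start. The 5 stretches below belong to genes that rose in both genotypes and hold no annotated exon; each is the 250 bases before the start, 5′ to 3′ on the gene's strand. Capitals mark CAGAC, the SMAD box, and CCACCCC, a string within the consensus site of RREB1 and close to that of KLF factors, each on either strand (GTCTG and GGGGTGG on the other).
Col7a1, chr9:108953336-108953585, plus strand: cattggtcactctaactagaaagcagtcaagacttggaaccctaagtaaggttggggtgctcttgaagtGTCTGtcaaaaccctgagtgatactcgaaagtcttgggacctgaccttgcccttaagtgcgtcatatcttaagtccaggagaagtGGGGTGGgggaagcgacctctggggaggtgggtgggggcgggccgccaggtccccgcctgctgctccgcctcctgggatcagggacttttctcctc
Col15a1, chr4:47207762-47208011, plus strand: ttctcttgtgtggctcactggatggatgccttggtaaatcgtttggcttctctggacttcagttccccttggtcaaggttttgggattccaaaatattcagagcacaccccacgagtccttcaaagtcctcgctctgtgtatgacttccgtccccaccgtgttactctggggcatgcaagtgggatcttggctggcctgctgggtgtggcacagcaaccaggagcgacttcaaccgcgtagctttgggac
Col27a1, chr4:63215162-63215411, plus strand: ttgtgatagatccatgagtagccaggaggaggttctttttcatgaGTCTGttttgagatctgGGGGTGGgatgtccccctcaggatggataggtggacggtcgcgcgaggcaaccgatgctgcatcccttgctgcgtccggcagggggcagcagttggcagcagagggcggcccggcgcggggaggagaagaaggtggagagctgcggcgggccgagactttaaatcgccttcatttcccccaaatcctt
Col5a3, chr9:20815068-20815317, minus strand: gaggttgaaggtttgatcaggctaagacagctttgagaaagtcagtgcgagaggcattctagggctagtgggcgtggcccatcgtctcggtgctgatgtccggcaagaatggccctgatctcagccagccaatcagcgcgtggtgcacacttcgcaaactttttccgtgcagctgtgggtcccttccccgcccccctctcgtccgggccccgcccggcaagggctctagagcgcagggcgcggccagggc
Ltbp3, chr19:5740650-5740899, plus strand: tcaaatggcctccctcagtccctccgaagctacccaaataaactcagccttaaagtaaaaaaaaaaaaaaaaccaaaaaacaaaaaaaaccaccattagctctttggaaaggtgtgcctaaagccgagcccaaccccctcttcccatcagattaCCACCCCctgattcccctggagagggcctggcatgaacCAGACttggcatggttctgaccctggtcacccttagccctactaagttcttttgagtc

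Col7a1, Col27a1 and Ltbp3 each held 1 CAGAC and 1 CCACCCC in these 250 bases, and Col15a1 and Col5a3 held neither. Over the full windows, CAGAC was in 22 of 40 (55%), beside 49.6% of the 32851 windows in the table. CCACCCC was in 13 of 40 windows (32.5%, beside 15.1%) and the GC box GGGCGG in 25 of 40 (62.5%, beside 35.7%). The E-box CACCTG (20% beside 20.2%), the AP-1 site TGANTCA (5% beside 7.81%) and TATAAA (15% beside 13.6%) had shares near those of all windows. CCACCCC and GGGCGG can overlap by 2 bases, on opposite strands. These counts describe letters and not binding, and windows of 1 gene can overlap each other.

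Collagen IV, the network collagen of basement membranes, split into its chain pairs. Col4a1 and Col4a2, which form the common trimer from 2 genes that start head to head (chr8:11198423-11312826 and chr8:11312805-11449287), were abundant. Col4a1 had 15098 and 13931 in WT cells under SB505124 and 12076 and 10212 under TGFβ, a fall of 0.39 ± 0.10 on the log2 scale (limma adjusted p = 0.0052). Col4a2 had 8360.5 and 7856 and then 6953 and 5744, a change of -0.36 ± 0.11 (limma adjusted p = 0.010). Both calls were lost without WT SB505124 replicate 1 (adjusted p = 0.077 and 0.10) and without WT TGFβ replicate 2 (adjusted p = 0.053 and 0.11). In KO-labelled cells Col4a1 had 13606 and 15369.7 under SB505124 and 16305 and 13648 under TGFβ, and Col4a2 6454 and 7735 and then 7815 and 6576, and neither was called. The level of Col4a1 per kilobase was 1.54 to 1.87 times that of Col4a2 in every library.

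The minor pair Col4a3 and Col4a4, known from the kidney and the inner ear, also starts head to head, with 71 bases between the starts. That stretch holds neither motif searched:
Between the starts of Col4a4 and Col4a3, chr1:82586850-82586920, minus strand: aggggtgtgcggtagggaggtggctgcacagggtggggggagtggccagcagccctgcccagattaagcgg

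Col4a3 had 241 and 187 in WT cells under SB505124 and 346 and 342 under TGFβ. In KO-labelled cells it had 26.1 and 25.9 and then 61.6 and 36.9. The rises of 0.69 ± 0.21 and 0.85 ± 0.21 passed the test (limma adjusted p = 0.013 and 0.0046), but the WT one was lost without WT SB505124 replicate 2 (0.51, adjusted p = 0.16) and the KO-labelled one without KO-labelled TGFβ replicate 1 (0.49, adjusted p = 0.11). Col4a4 had 241 and 183, then 286 and 221 in WT, and 26.1 and 47.5, then 65.5 and 54.3 in KO-labelled cells. Both partner genes were lower in KO-labelled cells under each treatment, Col4a3 by 2.98 ± 0.21 and 2.82 ± 0.21 and Col4a4 by 2.54 ± 0.24 and 2.06 ± 0.24 on the log2 scale. The groups did not overlap. The α5 and α6 chains that complete the other type IV trimers, Col4a5 and Col4a6, had means of 1.81 and 0.357 over the 8 libraries and were not tested.

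Laminins, the trimers that start the basement membrane, differed in response by chain. Of 9 tested chains, 3 rose and 1 fell with TGFβ in WT and 2 rose and 1 fell in KO-labelled cells (20.2% and 23.2%, and 15.1% and 15.8%, of all genes), counts too small to set apart from those shares. Lamb3, the β3 chain of the laminin that anchors hemidesmosomes, had 6703 and 6433 in WT cells under SB505124 and 13849 and 10991 under TGFβ. Its KO-labelled values were 6241 and 7475 under SB505124 and 15654 and 14945 under TGFβ. The rises of 0.91 ± 0.10 and 1.16 ± 0.10 (limma adjusted p = 1.3e-06 and 4.3e-08) held in all 20 alternatives run.

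Lama3, the α chain of the same trimer, was read at 7.45 to 24.2 per library and was called in no comparison. Per kilobase its group means were 0.869 to 2.08, against 993 to 2314 for Lamb3. Lamc1, the γ1 chain of most other laminins, moved the opposite way to Lamb3. It had 15483 and 14778 in WT cells under SB505124 and 8739.7 and 8226 under TGFβ, a fall of 0.84 ± 0.09 on the log2 scale (limma adjusted p = 3.4e-07). In KO-labelled cells it had 17219 and 17109 and then 12807 and 11089, a change of -0.53 ± 0.09 (limma adjusted p = 9.2e-05).

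The β1 chain Lamb1 was higher in KO-labelled cells. It had 2377 and 2336 in WT cells under SB505124, 2866 and 2724 under TGFβ, 3807 and 4034 in KO-labelled cells under SB505124 and 6760 and 5683 under TGFβ. The 4 groups did not overlap. KO-labelled cells exceeded WT by 0.73 ± 0.09 under SB505124 and 1.15 ± 0.09 under TGFβ (limma adjusted p = 6.6e-07 and 1.4e-09). TGFβ raised it by 0.25 ± 0.09 in WT (limma adjusted p = 0.027) and 0.66 ± 0.09 in KO-labelled cells, and the WT call was lost without WT SB505124 replicate 1 (adjusted p = 0.10), WT SB505124 replicate 2 (adjusted p = 0.13) or WT TGFβ replicate 1 (adjusted p = 0.096). Lama5, the main epithelial α chain, ran from 17148 to 25911 over the 8 libraries and Lamb2 from 4557 to 7090, with TGFβ responses that did not pass the test in either genotype. The KO-labelled against WT calls of Lama5 (0.30), Lamb2 (0.32) and Lamb3 (0.31) under TGFβ were lost without WT TGFβ replicate 2 and without KO-labelled TGFβ replicate 1. Lama4, an α chain of vessels and muscle, had 30.4 and 22.0 and then 15.8 and 22.9 in WT, and 2 and 1 reads in KO-labelled cells under SB505124. Its level there was 19.5-fold lower than in WT (95% counting interval 6.31 to 97.6, from 3 and 52 reads). Such intervals cover counting error only. Lama4 had a mean of 22.77 over the WT and 3.2 over the KO-labelled libraries. It entered the test only through its WT level, so it had to be lower.

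**Figure D4:**
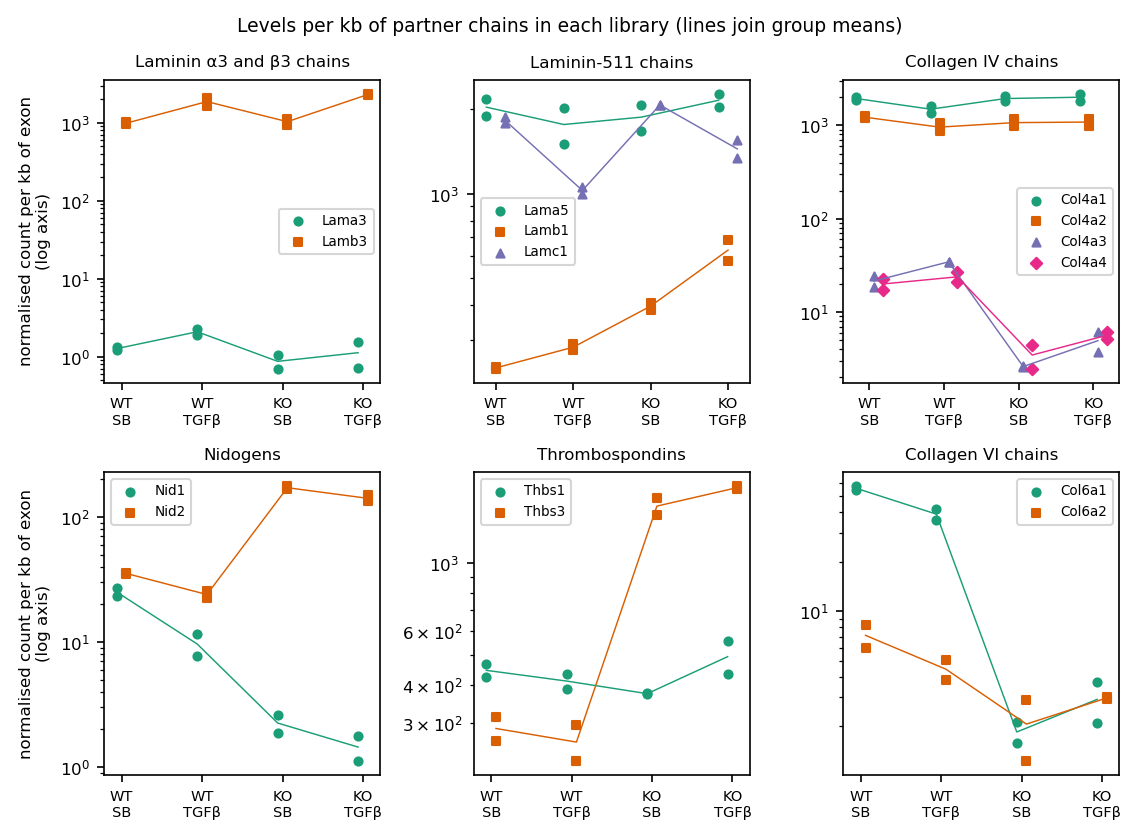
Levels per kilobase of annotated exon (log axis) for partner chains of laminin, collagen IV, collagen VI and for the nidogens and thrombospondins, with 1 point per library and lines joining group means (SB is SB505124). Lama3 lies far below Lamb3, and Thbs3 and Nid2 exceed Thbs1 and Nid1 in the KO-labelled groups.

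The linkers of the basement membrane fell or did not pass the test with TGFβ in WT cells. Nid1 (chr13:13437551-13512269), one of the nidogens that bridge laminin and collagen IV, had 162 and 186 in WT cells under SB505124 and 53.7 and 80.01 under TGFβ, a fall of 1.39 ± 0.29 on the log2 scale (limma adjusted p = 0.0008). Its KO-labelled values were 13.03 and 18.1 under SB505124 and 7.70 and 12.3 under TGFβ. Nid2 (chr14:19751265-19811787) had 183 and 182 and then 132 and 117 in WT, a change of -0.56 ± 0.12 (limma adjusted p = 0.00075). In KO-labelled cells Nid2 had 861 and 917 under SB505124 and 772 and 689.9 under TGFβ. So in KO-labelled cells Nid1 was lower, by 3.42 ± 0.29 and 2.63 ± 0.29, and Nid2 higher, by 2.27 ± 0.12 and 2.55 ± 0.12, under SB505124 and TGFβ. As levels per kilobase, the ratio of Nid1 to Nid2 was 0.659 and 0.762 in WT and 0.0113 and 0.0147 in KO-labelled cells under SB505124. Nid2 shares 437 exon bases (8.45%) with Rtraf on the opposite strand, listed as 2700060E02Rik, which ran from 2196 to 3013 in WT and from 1388 to 1537 in KO-labelled libraries. The library kit does not mark strand.

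Hspg2, which encodes the heparan sulfate proteoglycan perlecan, had 10183 and 9566 in WT cells under SB505124 and 11458 and 8134 under TGFβ, with no call. In KO-labelled cells it had 3574 and 4432 and then 6390 and 5402, a rise of 0.56 ± 0.13 (limma adjusted p = 0.0024). Agrn, which encodes agrin, had 20184 and 17882 and then 16676 and 13879.8 in WT, a change of -0.32 ± 0.11 (limma adjusted p = 0.021) that was lost without WT SB505124 replicate 1 (adjusted p = 0.22) and without WT TGFβ replicate 2 (adjusted p = 0.18). Its KO-labelled values were 12602 and 14430 and then 14911 and 12554.

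Fn1, which encodes fibronectin, and Sparc were called in none of the 5 comparisons at these times. Fn1 had 23825 and 22219 in WT cells under SB505124 and 21939 and 19579.6 under TGFβ, and 21219.6 and 21044 and then 26554 and 21240.2 in KO-labelled cells. Its log2 responses were -0.15 ± 0.10 in WT and 0.17 ± 0.10 in KO-labelled cells. Sparc ran from 24457 to 30279, with responses of 0.03 ± 0.09 and 0.10 ± 0.09. Thbs1, a secreted activator of latent TGFβ, had 2849 and 2569 and then 2644 and 2354 in WT, and 2261 and 2286 and then 3378 and 2629.5 in KO-labelled cells. Its KO-labelled rise of 0.39 ± 0.10 (limma adjusted p = 0.0066) was lost without KO-labelled TGFβ replicate 1 (0.21, adjusted p = 0.17).

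Of the latency proteins, Ltbp3 rose in both genotypes and all 3 rose in KO-labelled cells. Ltbp3 (chr19:5740904-5758532) had 9905 and 9612 in WT cells under SB505124 and 19993 and 14375 under TGFβ, and 10432 and 13821 and then 23569 and 22295 in KO-labelled cells. The rises were 0.80 ± 0.13 and 0.93 ± 0.13 (limma adjusted p = 7.9e-05 and 1.6e-05). Ltbp1 had 3057 and 2881 and then 3326 and 3213 in WT, and 963 and 1028 and then 1395 and 1244 in KO-labelled cells. Its KO-labelled rise of 0.40 ± 0.08 passed the test (limma adjusted p = 0.0010). Ltbp4 had 1085 and 952 and then 1087 and 728 in WT, and 69.8 and 118 and then 152 and 128 in KO-labelled cells. The KO-labelled rise of Ltbp4 (0.61 ± 0.20, limma adjusted p = 0.024) was lost in 9 of 20 alternatives, with 0.24 (adjusted p = 0.40) without KO-labelled SB505124 replicate 1 and 0.49 (adjusted p = 0.16) without KO-labelled TGFβ replicate 1. Fbn1, which encodes fibrillin, ran from 1.93 to 11.6 per library and was not tested.

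Between the genotypes, more matrix genes were lower than higher in KO-labelled cells. Under SB505124, 21 of the 40 were lower and 4 higher, against 27.7% and 29.2% of all genes. At least 2-fold, 18 were lower and 2 higher, against 8.33% and 6.71%. Under TGFβ, 19 were lower and 10 higher (30.2% and 32.7% of all genes), and 14 and 3 at least 2-fold (8.38% and 8.07%). The 10 genes higher under TGFβ became 5 without WT TGFβ replicate 2 or KO-labelled TGFβ replicate 1. The median log2 differences were -0.45 and -0.52, beside 0.01 over all genes in each. Among the 32 matrix genes with a mean of at least 50, 15 were lower and 4 higher under SB505124 and 13 and 10 under TGFβ. Of the 10953 genes with that mean, 3025 were lower and 3383 higher under SB505124 and 3294 and 3782 under TGFβ. The 10 matrix genes higher under TGFβ were thus near the share of all genes. The medians of the 32 were -0.22 and 0.05, so that under TGFβ the direction of the median turned. Col17a1, Col5a3, Col8a1, Lama4 and Tnc had means under 10 in the KO-labelled libraries. They entered the test only through their WT levels, so these 5 had to be lower. Col4a3, Col4a4, Col5a1, Col6a1 and Nid1 had means under 50 in the KO-labelled libraries. They passed the filter at 50 only through their WT levels, so they had to be lower among the 32. Of the 19 tested collagens, 12 were lower under SB505124 and 11 under TGFβ, and 1 was higher in each (Col15a1 and Col4a1). Of the 9 laminins, 2 were lower and 1 higher under SB505124, and 3 lower and 5 higher under TGFβ.

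**Figure D5:**
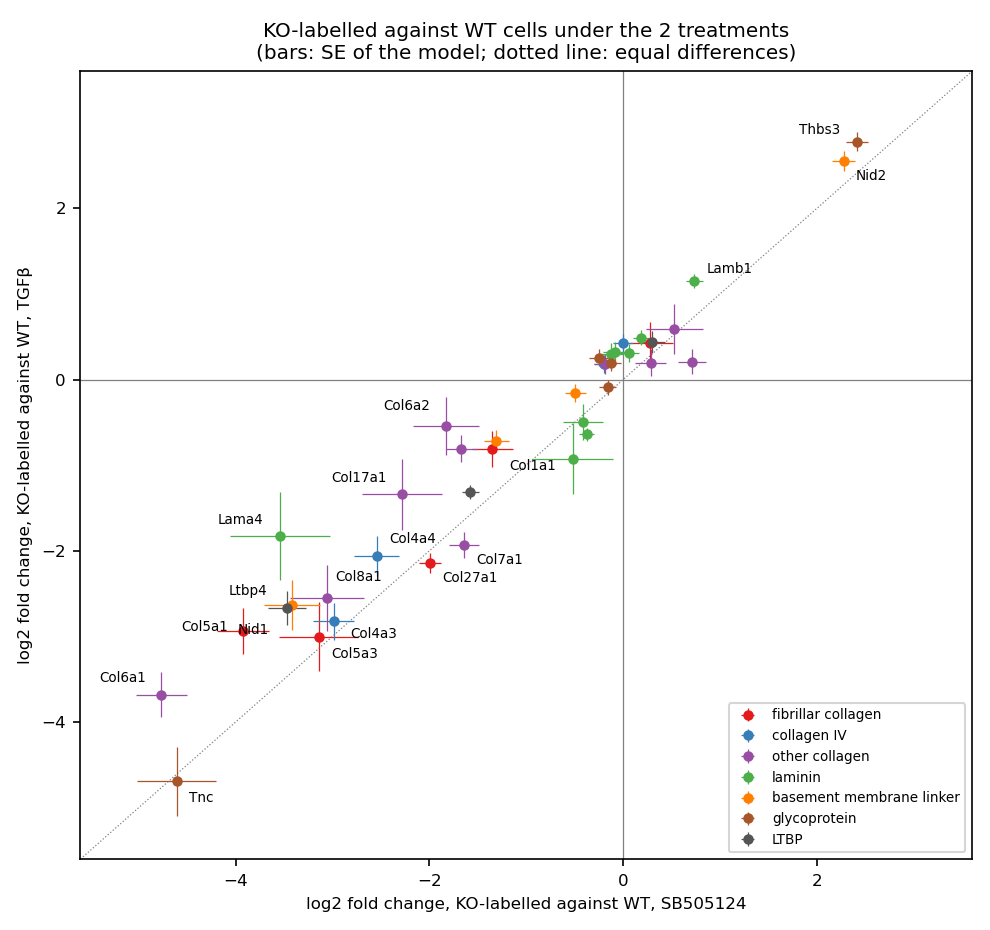
Log2 fold changes of the 40 tested matrix genes for KO-labelled against WT cells under SB505124 (x axis) and TGFβ (y axis), with the model's SE as bars and equal differences on the dotted line. Tnc and Col6a1 lie lowest on both axes, and Thbs3 and Nid2 lie above 2 on both axes. Tnc entered the test only through its WT level.

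The largest differences among the glycoproteins went in opposite directions. Tnc (chr4:63959785-64047015), which encodes tenascin C, a glycoprotein of wound and tumour stroma, had 75.01 and 60.1 in WT cells under SB505124 and 65.3 and 59.4 under TGFβ. It had 2 reads in each KO-labelled library under SB505124 and 1 and 2 under TGFβ. The TGFβ level was 41.9-fold lower than in WT (95% counting interval 13.99 to 206, from 3 and 114 reads). Tnc had a mean of 64.95 over the WT and 1.65 over the KO-labelled libraries. It entered the test only through its WT level, so it had to be lower. TGFβ responses were -0.11 ± 0.41 in WT and -0.19 ± 0.41 in KO-labelled cells. Thbs3 (chr3:89215180-89226837), a thrombospondin that forms pentamers, had 1514 and 1265 in WT cells under SB505124 and 1423 and 1086 under TGFβ, and 6914 and 7895 and then 8614 and 8411 in KO-labelled cells. It was higher in KO-labelled cells by 2.42 ± 0.11 and 2.77 ± 0.11 (limma adjusted p = 1.3e-12 and 1.6e-13). Its exons share 318 bases (6.59%) with Mtx1 on the other strand, which ran from 1568 to 1891 over the 8 libraries. As levels per kilobase, the ratio of Thbs1 to Thbs3 was 1.49 and 1.61 in WT and 0.260 and 0.230 in KO-labelled cells under SB505124.

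Among collagens, the chains of the beaded filament collagen VI were low in KO-labelled cells. Col6a1 had 252 and 237 in WT cells under SB505124 and 184 and 157 under TGFβ, and 9.31 and 6.91 and then 16.4 and 9.23 in KO-labelled cells. The differences were -4.77 ± 0.27 and -3.68 ± 0.27 (limma adjusted p = 2.1e-11 and 9.1e-10). Col6a2 had 68.9 and 50.1 and then 42.1 and 32.0 in WT, and 10.2 and 24.2 and then 25.03 and 24.6 in KO-labelled cells. It was lower by 1.83 ± 0.34 under SB505124 (limma adjusted p = 0.00015), and its TGFβ difference of -0.55 ± 0.34 did not pass the test. Col6a3, the third chain of the usual trimer, had at most 7.37 in any library and a mean below the limit of 5.

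Other collagens that were lower in KO-labelled cells under both treatments were Col1a1 (-1.35 ± 0.21 and -0.81 ± 0.21), Col5a1 (-3.92 ± 0.27 and -2.94 ± 0.27), Col5a3 (-3.14 ± 0.41 and -3.00 ± 0.41), Col27a1 (-1.99 ± 0.12 and -2.15 ± 0.12), Col7a1 (-1.65 ± 0.16 and -1.93 ± 0.16), Col12a1 and Col17a1. The Col1a1 call under TGFβ was lost without WT TGFβ replicate 1 (-0.56, adjusted p = 0.068), and that of Col17a1 without the same library (-1.09, adjusted p = 0.088) or KO-labelled TGFβ replicate 1 (-0.99, adjusted p = 0.10). Col8a1, a short-chain collagen of vessel walls, had 63.9 and 57.1 and then 42.1 and 34.3 in WT, and 4.65 and 8.64 and then 7.70 and 4.10 in KO-labelled cells. Its differences were -3.06 ± 0.38 and -2.55 ± 0.38. Col8a1, Col5a3 and Col17a1 entered the test only through their WT levels, so they had to be lower. Outside the collagens, Ltbp4 was lower by 3.47 ± 0.20 and 2.66 ± 0.20, Ltbp1 by 1.58 ± 0.08 and 1.31 ± 0.08 and Hspg2 by 1.31 ± 0.13 and 0.72 ± 0.13 on the log2 scale. The endostatin-bearing Col18a1 ran from 10615 to 18209 and Col20a1 from 18.0 to 42.0, and neither was called between genotypes.

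Chromosomes 4 and 14 stood apart on the lower side in this contrast. The median log2 difference of KO-labelled against WT cells over all tested genes was -0.69 and -0.68 on chromosome 4 (714 genes) and -0.62 and -0.58 on chromosome 14 (392 genes), under SB505124 and TGFβ. Agrn, Col15a1, Col16a1, Col27a1, Hspg2 and Tnc lie on chromosome 4, and Nid2, which was higher in KO-labelled cells, on chromosome 14. Among the 33 tested matrix genes on other chromosomes, 17 were lower and 2 higher under SB505124, against 22.8% and 31.5% of all genes there. Under TGFβ, 16 were lower and 9 higher (25.9% and 35.1%). Col17a1, Col5a3, Col8a1 and Lama4 are among the lower genes under both treatments. They entered the test only through their WT levels and had to be lower. Of these other chromosomes, chromosome 18 (306 genes), which carries Lama3, had the highest medians, 0.26 under SB505124 and 0.29 under TGFβ.

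The genes that process and cross-link collagen were mostly lower in KO-labelled cells too. Of 28 tested members of a list of 45, 17 were lower and 6 higher under SB505124, and 17 and 9 under TGFβ (27.7% and 29.2%, and 30.2% and 32.7%, of all genes). Serpinh1, which encodes the collagen chaperone HSP47, had 4912 and 4722 in WT cells under SB505124 and 6148 and 4939.8 under TGFβ. In KO-labelled cells it had 17.7 and 21.6 and then 19.3 and 29.7. Its level was 244-fold lower under SB505124 (95% counting interval 182 to 336.5, from 44 and 9562 reads) and 229-fold lower under TGFβ (173 to 309.6). Leprel4, another gene of this list, had 1249 and 1108 and then 1465 and 1377 in WT. In KO-labelled cells it had 115 and 128 and then 167 and 132. The cross-linking enzyme gene Loxl4 was lower by 2.64 ± 0.08 and 2.34 ± 0.08 and the prolyl hydroxylase gene P4ha2 by 2.45 ± 0.11 under TGFβ.

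With TGFβ, 9 of the 28 processing genes rose and 7 fell in WT cells, and 11 rose and 3 fell in KO-labelled cells (20.2% and 23.2%, and 15.1% and 15.8%, of all genes). Creb3l2, a transcription factor that supports collagen secretion, rose by 1.60 ± 0.09 and 1.63 ± 0.09 (limma adjusted p = 6.8e-11 and 3.8e-11). Pcolce2, an enhancer of procollagen C-proteinase, rose by 0.74 ± 0.10 and 1.41 ± 0.10, from 1264 and 1276 to 2259.9 and 1996 in WT and from 219 and 193 to 563 and 533 in KO-labelled cells. Its responses differed by 0.67 ± 0.14 (limma adjusted p = 0.010).

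Other matrix glycoproteins and proteoglycans gave 7 rises and 3 falls with TGFβ in WT and 9 and 1 in KO-labelled cells among 22 tested genes of a list of 55 (20.2% and 23.2%, and 15.1% and 15.8%, of all genes). Ctgf, a matricellular gene and TGFβ target, rose from 15830 and 14774 to 71242 and 65439 in WT and from 17280 and 18533 to 40488 and 37060 in KO-labelled cells. Its response was smaller in KO-labelled cells, by 1.04 ± 0.13 (limma adjusted p = 1.4e-04). Between genotypes, 16 and 17 of the 22 were lower and 3 and 5 higher under SB505124 and TGFβ (27.7% and 30.2%, and 29.2% and 32.7%, of all genes). Gpc4, a cell surface glypican, had 198 and 167 and then 145 and 154 in WT and 1 read in all 4 KO-labelled libraries. Against 3 reads over the group, it was at least 136-fold lower under SB505124. Tnxb, which encodes tenascin X, was lower by 4.48 ± 0.19 and 4.46 ± 0.19. Gpc4 and Dcn, both of this list, had means of 0.513 or below in each KO-labelled group. They entered the test only through their WT levels, so both had to be lower. Other genes of the context lists were not checked for this.

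Among 26 tested genes for matrix receptors, from a list of 30, 11 rose and 5 fell with TGFβ in WT and 15 rose and 1 fell in KO-labelled cells (20.2% and 23.2%, and 15.1% and 15.8%, of all genes). Itga5, the fibronectin receptor chain, rose from 2214 and 1982 to 5671 and 4950 in WT and from 366 and 376 to 1822 and 1688 in KO-labelled cells. Its KO-labelled response was larger by 0.90 ± 0.13 (limma adjusted p = 3.8e-04). Itgb6, whose product activates latent TGFβ, rose by 1.70 ± 0.08 and 1.89 ± 0.08. Between genotypes, 11 receptors were lower and 6 higher under SB505124 and 9 and 11 under TGFβ (27.7% and 29.2%, and 30.2% and 32.7%, of all genes), so that the lower calls under TGFβ were near the share of all genes. Itga1, a chain of a collagen receptor, had 141 and 124 and then 145 and 120.0 in WT, and 988 and 976 and then 1277 and 1074 in KO-labelled cells. Sdc3, a syndecan, was lower by 2.67 ± 0.10 and 1.88 ± 0.10 on the log2 scale.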

How the data were processed

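RNA sequencing measured 8 libraries, 2 per group. The authors deposited a signal: read counts divided by a size factor, judged from the values. Dividing by the value of 1 read in each library gave integers (tolerance 0.01 reads) for 100% of values, and with them the size factors of 0.875 to 1.158. FastQC 0.11.5, HTSeq 0.6.1p1, DESeq2 3.4 and mm10 were used, per the submitters' processing notes; the aligner is not given in the sources used here. Per the labels' protocols, the TruSeq v2 kit was used.

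Genes with a mean of at least 10 were tested (12498). Values were log2 transformed after adding 1, so fold changes of genes with few reads are understated, and fitted as 4 group means over all 8 libraries with limma 3.58.1 (R 4.3.3, variance trend). Benjamini-Hochberg adjustment ran across every gene tested, with a threshold of 0.05. The responses to TGFβ, their difference (KO-labelled minus WT) and the genotypes under each treatment were compared. The procedure was tested on simulated data. Alternatives were 2 other pseudocounts, 2 other filters, TMM factors, no trend, edgeR 4.0.16 and DESeq2 1.42.0 on the recovered reads, a replicate block, only the compared libraries and each library left out. A GC content and length correction, alone and with the block, was chosen after seeing the data. For TGFβ in WT, edgeR called 2797 genes higher and 2755 lower.

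Levels per kilobase, overlaps and gene positions use GENCODE M21 on GRCm38, which is mm10. Promoters come from RefSeq for GRCm38.p6. Any of the 44 genes could be named; values in all libraries were given for those that changed at least 2-fold in a comparison, their partner chains, Fn1, Thbs1, Sparc, Fbn1 and Tnc, and of each context list up to 4 genes with the smallest p per comparison. Members and lists were chosen with earlier results of these data known. Protein sequences were not used here, and 1 tested gene is included in counts but not reported by itself. The table has 26 date-like symbols and 4 rows that share a name, which are not named.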

Additional observations from a re-analysis of the deposited data

Results flagged for a closer look

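The TGFβ response of Col12a1 was larger in KO-labelled than in WT cells by 0.86 ± 0.22 on the log2 scale (limma adjusted p = 0.043, n = 2 in each group), and this difference between the genotypes was itself tested. All 4 pairings of a KO-labelled TGFβ with a KO-labelled SB505124 library gave a rise (189.9 and 151 to 319 and 217), and all 4 WT pairings a lower value (588 and 499 to 467 and 456). The WT response of -0.23 ± 0.16 did not pass the test. Over the alternatives the difference ran from 0.59 to 1.14, with a highest adjusted p of 0.31.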

How the results depend on the processing

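The WT response gave 8 to 13 rises over all settings, against 12, and the KO-labelled response 13 to 22, against 19. Genes lower in KO-labelled cells numbered 15 to 23 under SB505124, against 21, and 13 to 20 under TGFβ, against 19. The 6 falls in WT became 3 with no variance trend and 10 with the block and the GC correction together, and 3 to 10 with a library left out. The 1 fall in KO-labelled cells became 2 in edgeR, 3 under the GC and length correction, 3 with the block added to it, and 1 to 2 with a library left out. The 1 larger response became 0 with the filter at a mean of 5 (Col12a1 adjusted p = 0.050) and 0 with no trend, 2 in edgeR, 3 in DESeq2, 3 under the GC correction and 3 with the block added to it, and 0 to 13 with a library left out. Smaller responses numbered 3 under the GC correction and 2 with the block added, against 0. Over all genes, smaller responses then numbered 188 and 227, against 71. Larger responses over all genes numbered 487 and 524, against 281. Genes higher in KO-labelled cells under SB505124 became 8 under the GC correction and 8 with the block added to it, against 4, and those under TGFβ 6 with no trend, against 10, and 5 to 15 with a library left out. Over all genes, higher calls under SB505124 went from 3655 to 3923 under the GC correction and 3987 with the block added. Under TGFβ they went from 4087 to 3792 with no trend. Falls over all genes went from 2896 to 2395 in WT with no trend. In KO-labelled cells falls went from 1976 to 2199 under the GC correction. Col4a2 turned from 0.02 to -0.26 in the KO-labelled response under the GC and length correction (limma adjusted p = 0.0073). With the replicate block added it was also -0.26 (limma adjusted p = 0.0059). The cause was not tested. Of the calls, 7 of 18 in WT, 8 of 20 in KO-labelled cells, 1 of 25 under SB505124 and 9 of 29 under TGFβ were lost in at least 1 alternative.

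Replicates share only a number: deviations of same-numbered libraries correlated by 0.20 between the WT groups, 0.10 between the KO-labelled groups and -0.20 to -0.03 between other groups. With the replicate number as a block, 12 matrix genes rose and 6 fell in WT (2502 and 2857 over all genes). In KO-labelled cells 17 rose and 1 fell (1792 and 1866 over all genes). The response was larger for 1 and smaller for 0 (201 and 51 over all genes). Under SB505124, 5 were higher and 21 lower in KO-labelled cells (3659 and 3444 over all genes). Under TGFβ, 8 were higher and 18 lower (4059 and 3776 over all genes). Over all genes the difference of responses ran from 281 higher and 71 lower to 31 and 16 with no trend. The fit on only the compared libraries gives no difference of responses. Depth limits the responses of Tnc and Lama4 in KO-labelled cells, where the reads summed to 4 and 3 under SB505124 and 3 and 10 under TGFβ, and neither response passed the test (adjusted p = 0.76 and 0.065).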
